A study of Mus musculus with 13 samples.

Results

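Neurotrophins are small secreted proteins that keep neurons alive and tune their synapses. The genes followed here were the neurotrophins Bdnf and Ntf3, the receptor tyrosine kinases Ntrk2 and Ntrk3, and the shared receptor Ngfr. They were matched by symbol, and all 5 were found among the 32285 counted genes. Another 40 genes of the pathway, among them further ligands and receptors, co-receptors, processing enzymes and signalling adaptors, were described beside them.

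The study profiled single nuclei of whole frozen hippocampus from female mice of the C3B6F1 hybrid strain (given as C3HB6F1 in 1 label field). Nuclei were stained with Hoechst, sorted and sequenced with 10x Genomics 3′ chemistry, in 13 libraries of 4 groups. Young mice of 5 months fed ad libitum gave 3 libraries, and old mice of 24 months fed ad libitum gave 3 libraries, numbered 1, 2 and 4. Old mice of 24 months under acute dietary restriction, begun at 20 months, gave 3 libraries. Old mice of 24 months under long-term dietary restriction, begun at 5 months, gave 4 libraries. All mice shared 1 strain background, with no engineered allele given. The labels do not say whether each library came from its own mouse, so p-values measure the spread between these libraries. The young group had no restricted counterpart, and both restricted groups were compared with the same 3 old ad libitum libraries.

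As background, BDNF signals mainly through TrkB, the product of Ntrk2, and NT-3 mainly through TrkC, the product of Ntrk3. The product of Ngfr, p75NTR, binds all mature neurotrophins and, together with sortilin-family receptors, their uncleaved precursors. In the hippocampus, dentate granule neurons make BDNF and store it in the mossy fibres that they send to CA3, and transcription of Bdnf is driven by neuronal activity. Astrocytes carry largely a TrkB form that lacks the kinase. The counts were per gene, so the full-length and kinase-lacking forms of Ntrk2 and Ntrk3, and the Bdnf transcripts from its several promoters, could not be told apart.

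On GRCm38, Bdnf lies at chr2:109674700-109727007 on the + strand and Ntf3 at chr6:126101412-126166910 on the - strand. Ntrk2 lies at chr13:58806569-59133970 (+) and Ntrk3 at chr7:78175959-78738012 (-), so the receptor kinase genes span 327 and 562 kb. Ngfr, at chr11:95568818-95587735 (-), spans 18.9 kb. A counted antisense gene overlaps Bdnf (Gm45346), 2 overlap Ntrk2 (Gm47423 and 4930415C11Rik), and 2 overlap Ntrk3 (4921513I08Rik and Gm9885), which also holds the sense gene Gm39038. The use of strand and of intronic reads in counting is not given in the sources used here, so the counts of these members and of the overlapping genes are uncertain to that extent.

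Bdnf is the textbook case of a gene with several activity-responsive promoters, and the upstream window with a half-site of the cyclic AMP response element is printed here to show where such a motif lies. RefSeq (GRCm38.p6) gave 7 windows of 250 bases upstream of a Bdnf transcript start. The motif TGACG, searched on both strands, occurred in 1 of the 7 and in 0 of the 4 windows found for Ntf3, Ntrk2 and Ngfr, while 17.8% of all 32851 windows of this length held it. The window, chr2:109692186-109692435 on the + strand, holds the motif as its reverse complement 35 bases before the start, in capitals.

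Bdnf upstream window: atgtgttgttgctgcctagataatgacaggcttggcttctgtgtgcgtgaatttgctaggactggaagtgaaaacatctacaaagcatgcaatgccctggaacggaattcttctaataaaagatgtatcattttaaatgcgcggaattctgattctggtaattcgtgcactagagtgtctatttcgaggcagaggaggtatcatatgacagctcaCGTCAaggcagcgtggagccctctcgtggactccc

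The letters describe this window only, since the counts do not resolve which Bdnf start was used.

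The libraries held 38546292 to 80538090 unique molecular identifiers (UMIs, each standing for 1 captured RNA molecule), 742437104 in all. After filtering and removal of 7386 doublet calls (7.01%), 98041 nuclei remained, with library medians of 3688 to 11200 UMIs per nucleus. Library pairs shared 3 to 40 barcode sequences. Marker genes named 17 of 45 clusters in 13 classes of 69565 nuclei, and these classes are called "like" their type. The remaining 28 clusters (28476 nuclei) stayed unnamed. The 4 libraries numbered 1, 1 in each group, deviated together from their groups (correlations of 0.34 to 0.80 over all genes). Most tests between groups and between classes are given with and without them. Levels and shares of nuclei are over all libraries. A level below is in CPM, the UMIs of a gene in a class and library scaled to 1000000 UMIs of that class, as mean ± SD over libraries with at least 20 nuclei of that class. RNA free in the droplets can add UMIs to nuclei that do not express a gene, and it was not measured in empty droplets here. As a reference, 7 neuronal genes stood at a median of 6.93% of their granule-like level in oligodendrocyte-like nuclei, 5.68% in astrocyte-like and 8.25% in microglia-like nuclei. The percents of the granule-like level given for the members below are from UMIs pooled over all libraries, not from the means over libraries. Classes were named from the same libraries and the member genes were left out of the clustering.

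Bdnf was a gene of the excitatory neurons. Its level was 74.1 ± 8.88 CPM in granule-like nuclei (n = 13 libraries, 58.5 to 84.4) and 66.0 ± 24.9 in mossy-like nuclei, the hilar excitatory neurons (n = 8). CA3-like nuclei followed with 31.4 ± 10.9 (n = 11) and CA1-like nuclei with 28.8 ± 8.98 (n = 13). Inhibitory-like nuclei had the lowest level of the 13 classes, 4.19 ± 1.53 (n = 13). The endothelial-like and mural-like means of 35.6 ± 33.0 and 29.2 ± 42.6 rested on 24 and 10 UMIs in all. Granule-like and mossy-like nuclei could not be told apart within libraries: Bdnf was higher in granule-like nuclei in 5 of 8 (exact two-sided sign-flip test, adjusted p = 0.637). Only 1 of the 12 neighbouring pairs in the order of Bdnf levels passed, astrocyte-like above precursor-like nuclei (8.83 ± 3.31 against 5.09, higher in 11 of 13 libraries, adjusted p = 0.0234 by the exact sign-flip test). Without the 4 libraries numbered 1, at most 9 libraries enter this test and 0 of the 60 neighbouring pairs of the 5 genes passed, with a lowest adjusted p of 0.0781. Before adjustment, the smallest p that this exact sign-flip test can give is 0.00391 with 9 libraries, 0.0156 with 7 and 0.0625 with 5. A pair with the same direction in every library stands at that smallest p.

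Glial Bdnf lay within the range that the 7 neuronal genes covered in the same nuclei. With UMIs pooled over libraries, Bdnf stood at 15.1% of the granule-like level in oligodendrocyte-like, 13.8% in microglia-like, 10.4% in astrocyte-like and 6.51% in precursor-like nuclei. The means over libraries lay closer together in the first 3 of these, at 9.43, 9.23 and 8.83 CPM. The 7 neuronal genes had medians of 6.93%, 8.25%, 5.68% and 4.51% in these 4 classes, and highest values of 26.5%, 34.2%, 36.1% and 37.7%. Bdnf was thus above the median and below the highest of the 7 in each, and the part of free RNA in its glial counts was not tested. A Bdnf UMI was found in 31.5% of granule-like nuclei (exact binomial 95% interval 30.98 to 32.01, covering counting error only) and in 2.08% of oligodendrocyte-like nuclei, at median depths of 6188 and 1883 UMIs per nucleus. With each nucleus thinned to 1000 UMIs, the shares were 7.32% in granule-like, 5.89% in mossy-like, 2.68% in CA3-like, 2.67% in CA1-like, 1.14% in oligodendrocyte-like, 0.83% in astrocyte-like and 0.34% in inhibitory-like nuclei. At equal depth the excitatory order was kept and inhibitory-like nuclei lay below the glial share.

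Ntf3, which codes for NT-3, was nearly restricted to granule-like nuclei among the named classes. Its level there was 65.4 ± 6.81 (n = 13, 54.7 to 76.6), against 11.8 ± 6.205 in inhibitory-like nuclei (7.07 to 29.6), the next class. The difference was 2.48 ± 0.52 on the log2 scale (SD, n = 13), in the same direction in 13 of 13 libraries, with an adjusted p of 0.00488 from the exact sign-flip test. Without the libraries numbered 1 it was 2.33, in 9 of 9 (exact sign-flip adjusted p = 0.0781). CA3-like nuclei had 8.57 ± 8.80 (n = 11, 0 to 28.5), which did not separate from inhibitory-like nuclei (lower in 8 of 11 libraries, exact sign-flip adjusted p = 0.275). The other excitatory classes had little Ntf3: 1.87 ± 0.847 in CA1-like nuclei, and 2 UMIs in all in mossy-like nuclei, whose Bdnf was close to that of granule-like nuclei. Of the unnamed clusters other than 3 and 31, cluster 19 had 74.0 ± 13.6 and cluster 28 had 42.9, singled out after their values were seen. Thinned to 1000 UMIs, 6.14% of granule-like, 0.90% of inhibitory-like, 0.83% of CA3-like, 0.20% of CA1-like and 0.02% of mossy-like nuclei held an Ntf3 UMI. Glial Ntf3 stood at 2.47% to 6.13% of the granule-like level across precursor-like, astrocyte-like, microglia-like and oligodendrocyte-like nuclei, below the median of the 7 neuronal genes in each.

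**Figure D1:**
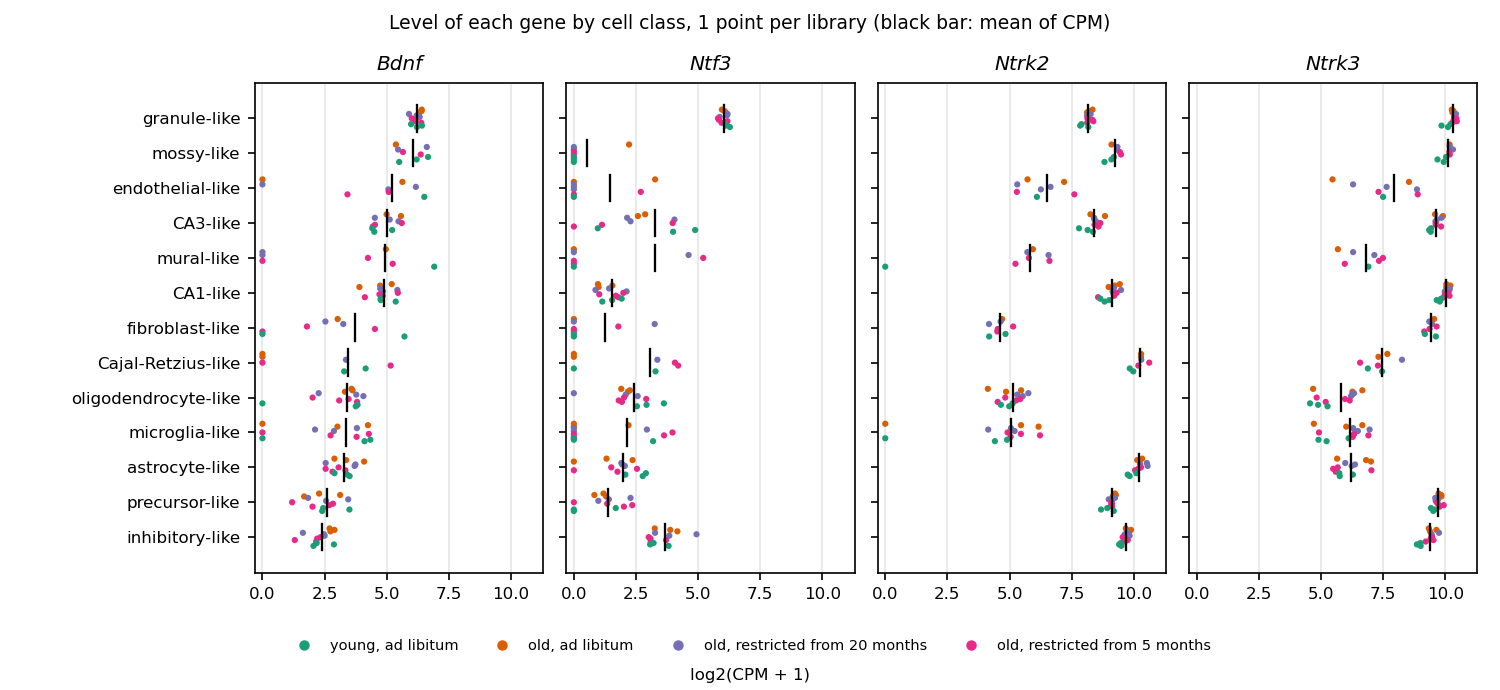
Level of Bdnf, Ntf3, Ntrk2 and Ntrk3 in each library by class, as log2(CPM + 1), with a black bar at the mean over libraries. Ntf3 is high in granule-like nuclei (mean 65.4 CPM) and low in mossy-like nuclei, whereas Bdnf is high in both (74.1 and 66.0).

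The inhibitory-like class is made of 3 clusters, which differed in their Ntf3 level. Cluster 20, led by Mctp2 and Hapln1, had an Ntf3 level of 33.2 ± 15.6, against 8.54 ± 4.50 in the Sst-marked cluster 9 and 3.80 ± 2.04 in cluster 11, marked by Vip and Cnr1. They held 269, 163 and 63 Ntf3 UMIs. Ntf5, a ligand gene outside the 5 that codes for NT-4, had 47 UMIs in all nuclei.

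Granule-like nuclei fell into 2 clusters with different levels of Bdnf and similar levels of Ntf3. Cluster 1 had 137 ± 15.7 CPM of Bdnf and cluster 0, whose leading genes are Dsp and Npnt, had 40.3 ± 8.04. Cluster 1 was higher in 13 of 13 libraries, by 2.39- to 4.95-fold. Ntf3 was 63.5 ± 7.60 in cluster 1 and 66.4 ± 7.29 in cluster 0, higher in cluster 1 in only 4 of 13. These are descriptions without a test, because the clusters were built from the same nuclei, and Bdnf is itself among the 10 leading genes of cluster 1. The transcription factor Prox1, the defining marker of granule neurons, had its highest level of the 33 clusters measured in cluster 0 (335 ± 19.7), and stood at 245 ± 14.1 in cluster 1.

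Clusters 3 and 31 met the marker rule of no class (fewer than 3 markers raised, or a mean fold too low) and stayed unnamed. They were singled out after their values were seen, since clusters 31, 1, the mossy-like cluster 33 and cluster 3 held the highest Bdnf of all clusters. Their Prox1 levels, 276 ± 12.2 and 258 ± 37.2, came right after cluster 0, although the oligodendrocyte-like cluster 2 also reached 223. Cluster 3 (8488 nuclei) had 69.2 ± 11.2 CPM of Bdnf and 89.8 ± 8.55 of Ntf3, higher than in cluster 0 in 13 of 13 libraries for Ntf3. Cluster 31 (396 nuclei) had 292 ± 62.1 CPM of Bdnf over the 8 libraries with at least 20 of its nuclei, 1.59 to 3.12 times the level of cluster 1 and 5.44 to 10.9 times that of cluster 0. Bdnf was among the 10 leading genes of cluster 31 too. Thinned to 1000 UMIs, 24.2% of its nuclei held a Bdnf UMI, against 11.95% in cluster 1, 6.90% in cluster 3 and 4.19% in cluster 0.

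The nuclei of cluster 31 also carried Ntrk2, Ntrk3, the sorting receptor genes Sorcs1 and Sorcs3 and the convertase gene Pcsk1 at high levels. Sorcs1, Sorcs3 and Pcsk1 are among the 10 leading genes of this cluster. Those genes are picked for a high level there, so their values are descriptions only. Over the 8 libraries with at least 20 nuclei of cluster 31, Ntrk2 was 841 ± 302 and Ntrk3 1738 ± 176 CPM there. In cluster 0 of the same libraries Ntrk3 was 1475 ± 37.7, lower than in cluster 31 in 7 of 8. Pooled over libraries, Sorcs1 stood at 1235 CPM in cluster 31, 55.9 in cluster 1 and 5.02 in cluster 0, and Sorcs3 at 2337, 353 and 31.4. Both code for sorting receptors. Pcsk1, a convertase that cleaves secreted precursors, stood at 143, 10.1 and 0.745. Of the genes induced by neuronal activity, Nr4a1 was 53.6 in cluster 31 and 4.55 in cluster 1, Nr4a3 was 64.1 and 11.2, and Nptx2 was 21.6 and 8.23. Fos was 3.41 in cluster 31 and 0.551 in cluster 1, and Arc 8.23 and 2.19, from 12 and 29 UMIs in cluster 31. In 5 libraries, among them all 3 young, cluster 31 had under 20 nuclei (7 to 15). Its sizes are not compared between groups, because its leading genes include Sorcs1 and Sorcs3, whose level in the granule-like class differed with age, as given below.

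**Figure D2:**
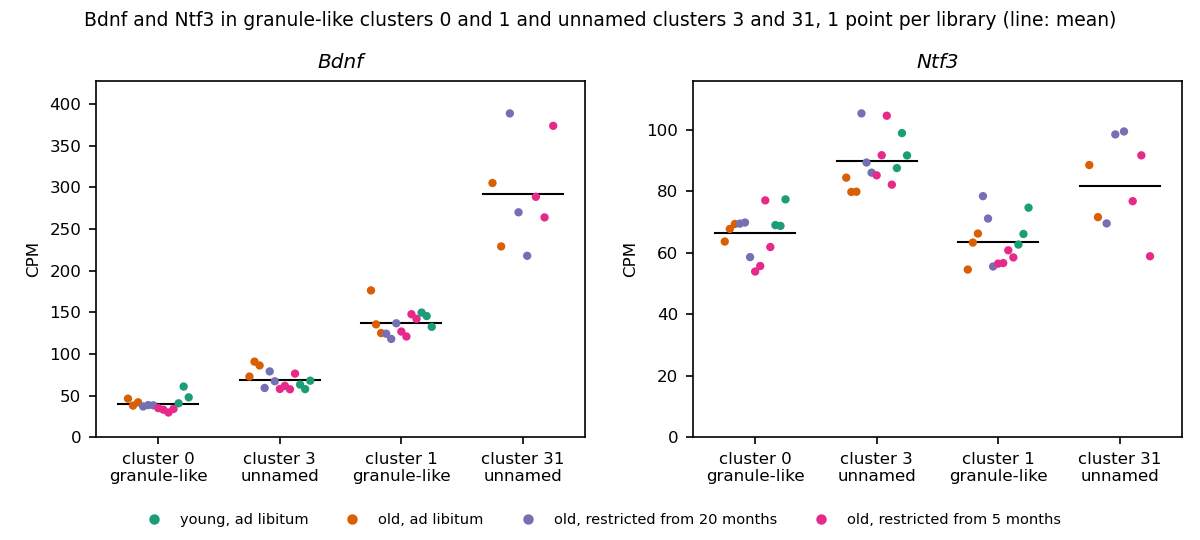
Bdnf and Ntf3 (CPM) in each library with at least 20 nuclei, in granule-like clusters 0 and 1 and unnamed clusters 3 and 31. Mean Bdnf is 40.3 in cluster 0, 137 in cluster 1 and 292 in cluster 31, whereas mean Ntf3 lies between 63.5 and 89.8.

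Ntrk2 was highest in Cajal-Retzius-like and astrocyte-like nuclei and lower in the other neurons. Its level was 1203 ± 212 in Cajal-Retzius-like nuclei (n = 7) and 1175 ± 185 in astrocyte-like nuclei (n = 13, 863 to 1503), and these did not separate within libraries (higher in Cajal-Retzius-like nuclei in 6 of 7, exact sign-flip adjusted p = 0.590). Inhibitory-like nuclei had 815 ± 83.1, below astrocyte-like nuclei in 13 of 13 libraries by 0.52 on the log2 scale (exact sign-flip adjusted p = 0.00488), and by 0.44 in 9 of 9 without the libraries numbered 1 (exact sign-flip adjusted p = 0.0781). Mossy-like nuclei (604 ± 87.4), CA1-like nuclei (555 ± 102) and precursor-like nuclei, the oligodendrocyte precursors (549.6 ± 56.2), formed a middle group whose neighbours did not separate (adjusted p of 0.25 and 1 by the same exact test). CA3-like nuclei had 341 ± 61.9 and granule-like nuclei 286 ± 30.2, the lowest of the neurons. CA3-like nuclei exceeded granule-like nuclei in 9 of 11 libraries by 0.23 on the log2 scale (exact sign-flip adjusted p = 0.0469), and in 7 of 7 by 0.29 without those numbered 1 (exact sign-flip adjusted p = 0.188). By mean level, the granule-like nuclei were thus highest in Bdnf among the named classes and lowest of the neuronal classes in the gene of its receptor. For Bdnf they did not separate from mossy-like nuclei, and for Ntrk2 the step to CA3-like nuclei did not pass without the libraries numbered 1. That step had the same direction in 7 of 7 libraries. It stood at the smallest unadjusted p of the exact sign-flip test (0.0156), which a larger difference could not lower.

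Oligodendrocyte-like nuclei had 34.1 ± 10.5 CPM of Ntrk2, and their precursors had 549.6. With UMIs pooled over libraries, the oligodendrocyte-like level was 12.8% of the granule-like level and the microglia-like level 12.5%. Both lay between the median and the highest value of the 7 neuronal genes in those nuclei. Thinned to 1000 UMIs, 65.6% of astrocyte-like, 64.9% of Cajal-Retzius-like, 53.4% of inhibitory-like, 41.8% of precursor-like, 22.4% of granule-like and 3.61% of oligodendrocyte-like nuclei held an Ntrk2 UMI. Among inhibitory-like clusters, Ntrk2 was 1088 ± 149.9 in cluster 20, 799.8 ± 85.1 in cluster 9 and 705 ± 70.9 in cluster 11, so cluster 20 led for this receptor as it did for Ntf3.

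Ntrk3 had the reverse order of Ntrk2 between granule-like and astrocyte-like nuclei. Its level was 1258 ± 132 in granule-like nuclei (n = 13, 924 to 1413), 1095 ± 139 in mossy-like nuclei, 1038 ± 118 in CA1-like nuclei, 828 ± 82.3 in precursor-like nuclei and 796 ± 101 in CA3-like nuclei. Granule-like nuclei exceeded mossy-like nuclei in 8 of 8 libraries (0.17 on the log2 scale, exact sign-flip adjusted p = 0.0469), and CA1-like exceeded precursor-like nuclei in 13 of 13 (0.32, exact sign-flip adjusted p = 0.00488). Without the libraries numbered 1 these were 0.14 in 5 of 5 and 0.27 in 9 of 9 (exact sign-flip adjusted p of 0.375 and 0.0781). The pair with 5 libraries could not pass at any size of difference. Mossy-like and CA1-like nuclei did not separate, nor did precursor-like and CA3-like nuclei (exact sign-flip adjusted p of 0.167 and 0.620). Inhibitory-like nuclei had 661 ± 115. Fibroblast-like nuclei had 689.8 ± 89.3 although the 7 neuronal genes had a median of 5.35% of the granule-like level there. Thinned to 1000 UMIs, 43.4% of fibroblast-like nuclei held an Ntrk3 UMI, against 66.5% of granule-like nuclei.

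Astrocyte-like nuclei had 74.0 ± 30.8 CPM of Ntrk3 and oligodendrocyte-like nuclei 54.9 ± 26.2. With UMIs pooled over libraries they stood at 4.79% and 5.44% of the granule-like level, an order that differs from that of the means. These pooled values lay below the medians of the 7 neuronal genes there. The granule-like nuclei thus held the highest named-class levels of both NT-3's gene and its receptor's gene. In the inhibitory-like clusters, Ntrk3 was 836 in cluster 9, 574 in cluster 20 and 492 in cluster 11, an order that differed from that of Ntrk2. Over the 5 genes, 10 of 60 neighbouring class pairs differed after Benjamini-Hochberg adjustment: 1 each for Bdnf and Ntf3, 5 for Ntrk2, 3 for Ntrk3 and 0 for Ngfr. Because neighbours are the closest pairs in each order, most of the order between adjacent classes is not resolved.

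Ngfr was close to absent. All nuclei together held 110 UMIs. Oligodendrocyte-like nuclei held 18 of them, in 17 of 10029 nuclei, fibroblast-like nuclei 8, in 7 of 751 nuclei (3.00 ± 5.06 CPM, n = 8), and granule-like nuclei 1. The unnamed clusters 18 and 17 held 24 and 19 UMIs. CA3-like, Cajal-Retzius-like, endothelial-like and mural-like nuclei had none.

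The genes whose mean levels followed those of a member most closely over the 13 classes were listed from 12210 genes, by Pearson correlation. The points share libraries and depth, so the values are descriptions. For Bdnf they were Cerkl (0.94), Neurod2 (0.91), Rin1 (0.90), Mtmr12 (0.90) and Nrgn (0.89). For Ntf3 they were Gabrd (0.77), Pdp1 (0.76), Sv2c (0.74), Cplx2 (0.71) and Naf1 (0.71). Among those for Ntrk2 were Gm47423 (0.98), whose reads on the opposite strand overlap Ntrk2, and Fmn2, Astn1 and Nol4 (0.96, 0.95 and 0.95). Ntrk3 was followed by Cyfip2 (0.95), Fndc9 (0.94), Gria3 (0.94), Rbfox1 and Dok6 (0.93 each). No gene reached for Ntf3 the likeness found for the other 3.

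Ageing was compared between the 3 old and 3 young ad libitum libraries, and the receptor genes are described first. In granule-like nuclei, Ntrk3 stood at 1187, 924 and 1106 CPM in the young libraries and at 1231, 1288 and 1254 in the old. In inhibitory-like nuclei it stood at 513, 464 and 516 in the young and 648, 801 and 669.5 in the old. In both classes every old library was above every young one.

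In CA1-like nuclei, Ntrk3 was 914, 808 and 880.2 in the young libraries and 1056, 1183 and 1054 in the old. In CA3-like nuclei it was 688, 654 and 684 in the young and 770.2 and 959 in the 2 old libraries with enough nuclei. In precursor-like nuclei it was 687, 760.2 and 733 in the young and 849.7, 918 and 919 in the old. The groups did not overlap in any of these 3 classes either, which makes 5 of the 8 classes tested for Ntrk3 and 2 of 7 for Ntrk2. Over all genes and classes, every old library was above every young one in 7.84% of gene and class pairs.

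Ntrk2 in inhibitory-like nuclei was 713, 679 and 723 in the young libraries and 818, 947 and 903 in the old. In astrocyte-like nuclei it was 1099, 863 and 910.4 in the young and 1293, 1127 and 1207 in the old. These are the 2 classes in which the groups did not overlap for Ntrk2. In granule-like nuclei, Ntrk2 was 237, 229 and 287 in the young libraries and 323, 292 and 277 in the old, so 1 old library lay below the highest young one. In CA1-like nuclei it was 402, 516 and 452 against 692, 602 and 506, which also overlapped by 1 library.

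**Figure D3:**
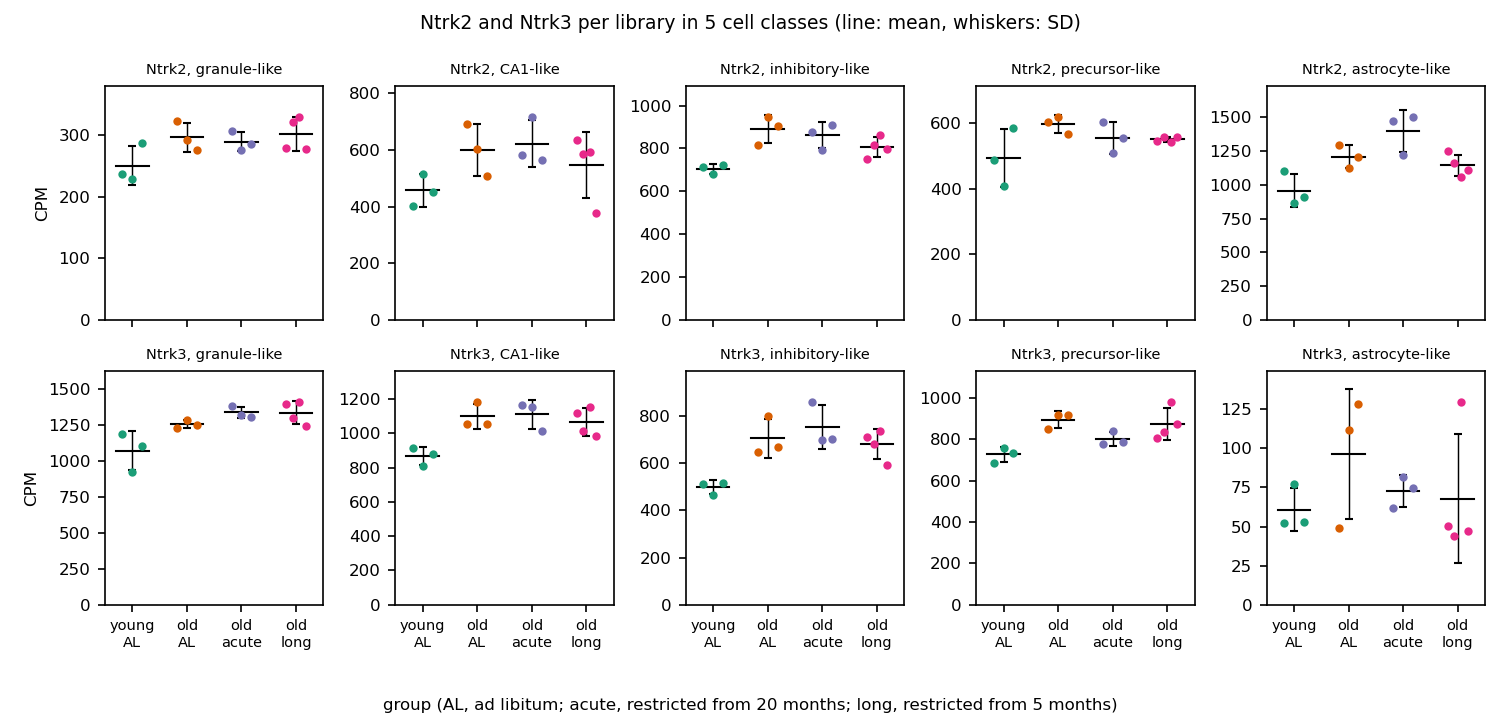
Ntrk2 and Ntrk3 (CPM) in each library by group in 5 classes, with the group mean and SD. For Ntrk3 in inhibitory-like nuclei the young libraries lie at 464 to 516 and all old libraries, of any diet, at 594 and above.

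The fit across all genes (edgeR quasi-likelihood test on summed counts, Benjamini-Hochberg adjustment within a class) called none of the members for ageing, at adjusted p below 0.05, in 26 member and class pairs. The same test called 1.48% of all gene and class pairs. Without adjustment, 13 of the 26 had p below 0.05, against 18.7% of all genes, and 20 were positive. The pairs share genes and libraries and are not independent, and the share over all genes is not matched for gene span. Ntrk3 was positive in 8 of 8 classes, with a median log2 fold change of 0.49 and 6 unadjusted p below 0.05, and Ntrk2 in 7 of 7, with a median of 0.40 and 6. With upper-quartile factors 1 pair was called, when 1.91% of all pairs were, and with no filter on low counts 3 of 39, when 1.55% were. With a replicate block 8 were called, when 6.53% of all pairs were, and without the 4 libraries numbered 1 it was 2, when 7.77% were. With DESeq2 6 pairs were called, all Ntrk2 or Ntrk3, when DESeq2 called 3.62% of all pairs. With a term for the libraries numbered 1, 8 were called, 7 for Ntrk2 or Ntrk3 and 1 for Bdnf, when 7.98% of all pairs were. In sums over all nuclei, 0 of 5 members were called by edgeR, as were 0% of all genes. There 1 member, Ntrk2, had an unadjusted p below 0.05, against 20.9% of all genes, and it was called by DESeq2, which called 4.3% of genes, and with the term for number 1, when 6.59% were called.

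Among the single estimates, Ntrk3 in inhibitory-like nuclei had a log2 fold change of 0.60 ± 0.13 (SE), with an edgeR adjusted p of 0.089 and a DESeq2 adjusted p of 0.0011. Ntrk2 in the same nuclei had 0.43 ± 0.10 (edgeR adjusted p = 0.098, DESeq2 0.0013). In granule-like nuclei the estimates were 0.38 ± 0.13 for Ntrk3 and 0.40 ± 0.12 for Ntrk2 (edgeR adjusted p of 0.097 and 0.0826). The inhibitory-like class pools 3 clusters and the granule-like class 2, which differ in their levels of both genes. The part of the cluster mix in these estimates was not tested. Ntrk3 in oligodendrocyte-like nuclei had 1.25 ± 0.37 (edgeR adjusted p = 0.0589), but its levels were 22.6, 28.6 and 37.5 in the young and 24.7, 101 and 76.0 in the old libraries, and the groups overlapped. The lowest edgeR adjusted p of any member in a class was thus above 0.05, and DESeq2 and edgeR differed on the call.

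The fold changes from edgeR are relative to its scaling factors (TMM). Scaling by library totals instead moved the ageing median of all genes by -0.16 to 0.00253 on the log2 scale across the 8 classes, most in granule-like nuclei. Fitted ageing values in granule-like nuclei are therefore larger than the ratio of levels gives, and with library totals 0 members were called as well. Ntf3 in granule-like nuclei changed sign between the scalings (0.03 with TMM, -0.13 with totals).

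**Figure D4:**
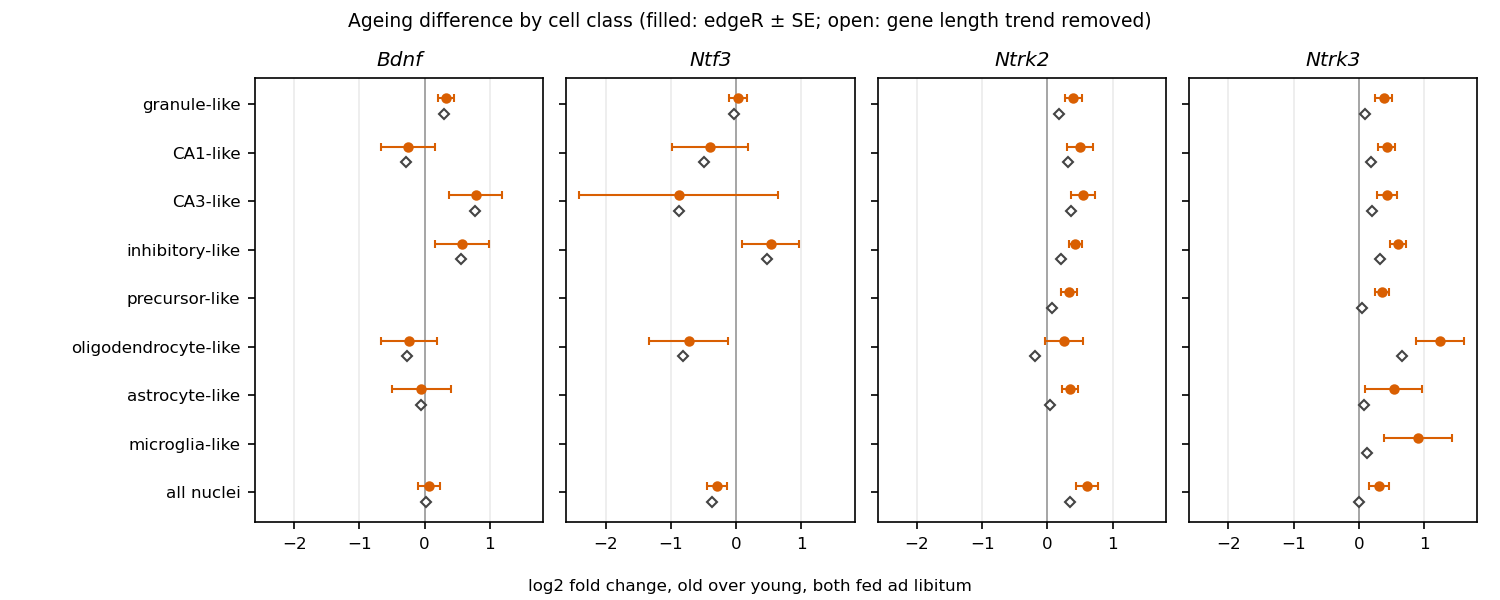
Ageing log2 fold change (old minus young, ad libitum) with SE for each member and class from edgeR, filled, and the value after the trend with gene span was removed, open diamonds. Ntrk3 is positive in all 8 classes (0.36 to 1.25), and its median falls from 0.49 to 0.16 once the trend is removed.

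Ageing differences moved with the span of a gene, and Ntrk2 and Ntrk3 are among the longest. In granule-like nuclei the median log2 fold change was -0.43 over 3951 genes under 10 kb and 0.36 over 591 genes of at least 300 kb, of which 82.4% were positive. In inhibitory-like nuclei the medians ran from -0.45 to 0.32, in oligodendrocyte-like nuclei from -0.47 to 0.51 and in precursor-like nuclei from -0.52 to 0.29. With this trend removed, the median over classes fell to 0.16 for Ntrk3 (0.05 to 0.66, 8 of 8 positive) and 0.18 for Ntrk2 (-0.20 to 0.36, 6 of 7 positive). In inhibitory-like nuclei, Ntrk3 kept 0.33 and Ntrk2 0.20, in CA1-like nuclei 0.19 and 0.31, and in precursor-like nuclei 0.05 and 0.07. Bdnf, whose 52.3 kb span is short beside them, kept 0.30 of 0.33 in granule-like nuclei.

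**Figure D5:**
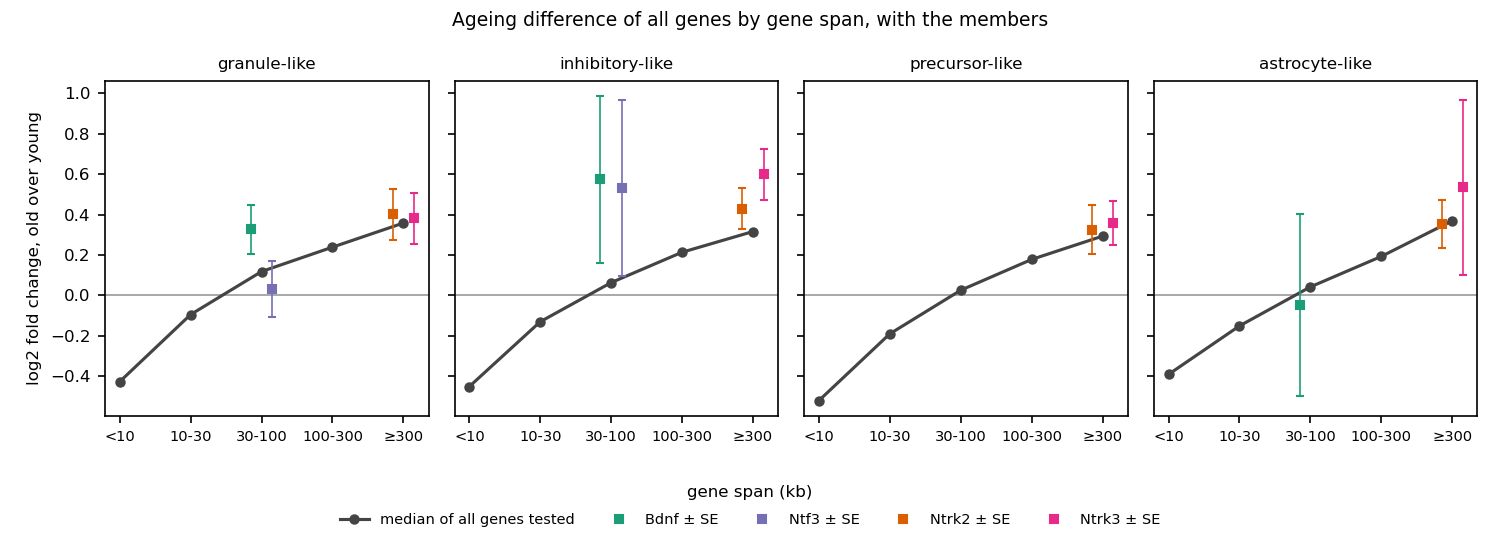
Median ageing log2 fold change of all tested genes by gene span in 4 classes, with the members at their own span and SE. The medians rise from -0.43 below 10 kb to 0.36 at 300 kb and above in granule-like nuclei, and Ntrk2 and Ntrk3 (0.40 and 0.38) lie near the value of the longest genes.

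Depth per nucleus moved with age too. In granule-like nuclei the median UMIs per nucleus were 3796 to 6376 in young and 6976 to 12873 in old ad libitum libraries, in inhibitory-like nuclei 4144 to 7623.5 and 9241 to 14469, and in precursor-like nuclei 1907 to 2841 against at least 2984 in every old library. With the depth as a covariate, 0 members were called, when only 0.0288% of all pairs were, and Ntrk3 estimates stayed positive (0.15 to 1.64). Age, depth and the span trend cannot be told apart in these libraries, and the part of each was not tested.

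The old libraries under restriction give further levels with the same young libraries, regardless of diet. Every young library was below every one of the old libraries for Ntrk3 in 5 classes, the granule-like, CA1-like, CA3-like, inhibitory-like and precursor-like, and for Ntrk2 in inhibitory-like nuclei. Over all genes this was so in 2.34% of pairs. Bdnf and Ntf3 had no such class. Some old libraries had a depth within the young range. In granule-like, inhibitory-like and astrocyte-like nuclei all of these were under restriction, because every old ad libitum library there was deeper than the young ones. Age and diet are therefore not separated in those classes. In CA1-like nuclei, 6 such libraries had Ntrk3 levels of 982 to 1183, against at most 914 in the young. In CA3-like nuclei, 4 had 781 to 959 against at most 688, and in granule-like nuclei 2 had 1297 and 1309.9 against at most 1187. In inhibitory-like nuclei, 1 had 701 for Ntrk3 and 911 for Ntrk2, against at most 516 and 723. In precursor-like nuclei there was none. These are the classes in which every old library lay above every young one, so any old libraries picked by depth must do so there. Elsewhere the ranges overlapped in some cases, as for Ntrk3 in astrocyte-like nuclei (62.1 to 74.4 against 52.5 to 77.0 in the young). For Ntrk2 in CA1-like nuclei they were 377 to 716 against 402 to 516. In others they did not overlap, as for Ntrk2 in astrocyte-like nuclei (1473 to 1503, both under acute restriction, against 863 to 1099).

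Among the ligands, ageing differences were smaller or less even. Bdnf in granule-like nuclei was 62.1, 84.4 and 73.3 in the young libraries and 84.0, 83.4 and 78.7 in the old, with a log2 fold change of 0.33 ± 0.12 (edgeR adjusted p = 0.1202). It was called with the term for the libraries numbered 1 (0.33, edgeR adjusted p = 0.0368), but not without those libraries (0.22, edgeR adjusted p = 0.2301) or with DESeq2 (adjusted p = 0.0834). The old libraries lay within the range of the young ones. The class holds clusters 0 and 1, which differ in Bdnf, and their shares of its nuclei were not even. Cluster 1 made up 23.0%, 30.7% and 34.5% of granule-like nuclei in the young libraries and 34.1%, 52.4% and 51.5% in the old. Its part in the class value was not tested, and each cluster's own fold change is given below. Bdnf was positive in 3 of 6 classes (-0.25 in CA1-like to 0.79 in CA3-like nuclei). Ntf3 in granule-like nuclei was 67.8, 68.1 and 76.6 in the young and 61.1, 65.7 and 68.0 in the old, and the groups overlapped. In 1 of the 5 classes tested for Ntf3, the oligodendrocyte-like, every old library was below every young one, as in 14.2% of all gene and class pairs. The levels there were 11.31, 6.59 and 4.803 in the young and 2.75, 3.77 and 3.51 in the old, from 1 to 13 UMIs per library. None of the 5 had an unadjusted p below 0.05. Ngfr passed the filter on low counts in no class and only in the sums over all nuclei, with a log2 fold change of 0.13.

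The clusters 0, 1 and 3 were also fitted alone, a choice made after the data were seen. In unnamed cluster 3, Bdnf was 63.4, 57.9 and 68.1 in the young libraries and 73.1, 90.9 and 86.4 in the old ad libitum libraries, so that every old library was above every young one, as for 8.21% of the genes tested there. The log2 fold change was 0.56 ± 0.14 (edgeR adjusted p = 0.028, when 5.39% of genes were called), 0.53 with the span trend removed (edgeR adjusted p = 0.0443) and 0.66 without the 4 libraries numbered 1 (edgeR adjusted p = 0.0114). It was not called with library totals (0.41, edgeR adjusted p = 0.0832), with the depth covariate (0.51, edgeR adjusted p = 0.342), or without old ad libitum libraries 2 or 4 or young library 2 (0.46 to 0.55, edgeR adjusted p up to 0.149). In granule-like cluster 0, Bdnf was 40.9, 61.0 and 48.1 in the young and 46.5, 38.1 and 42.1 in the old libraries (-0.08 ± 0.12), and in cluster 1 the fold change was 0.15 ± 0.14. Whether the ageing difference itself differs between these clusters was not tested.

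The receptor calls differed between the clusters. Ntrk3 was called in cluster 3 (0.42 ± 0.11, edgeR adjusted p = 0.0385) and Ntrk2 in cluster 1 (0.51 ± 0.13, edgeR adjusted p = 0.0429, when 4.18% of genes were called there). Neither call stayed with the span trend removed (0.21 and 0.30, edgeR adjusted p of 0.255 and 0.204), with library totals (0.27 and 0.38, 0.0572 and 0.0828), or without the 4 libraries numbered 1 (0.48 and 0.33, 0.0614 and 0.1696). With the depth covariate the estimates were 0.26 and 0.23 (edgeR adjusted p of 0.476 and 0.784). Both calls stayed with the term for the libraries numbered 1 (edgeR adjusted p of 0.0126 and 0.0114) and with DESeq2 (adjusted p of 0.00694 and 0.0140). Leaving out single libraries ended each call for 5 of the 6 in turn, with values of 0.33 to 0.48 for Ntrk3 and 0.38 to 0.61 for Ntrk2. For Ntrk3 the 1 exception was young library 1, and for Ntrk2 it was young library 3. In cluster 0 neither receptor was called (0.43 for Ntrk3 and 0.37 for Ntrk2, edgeR adjusted p of 0.0562 and 0.0896), when 2.87% of genes were called there. Ntrk2 in cluster 3 was 238, 236 and 284 in the young and 253, 237 and 253 in the old ad libitum libraries, which overlapped. Ntrk3 in cluster 1 was 947, 769 and 902 in the young and 1013, 1117 and 1047 in the old ad libitum libraries.

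Restriction was compared with the old ad libitum libraries, and no member was called in any class. Over all gene and class pairs, edgeR called 0.0355% for long-term restriction, 0.234% for acute restriction and 0.0133% for the difference between the restricted groups. In sums over all nuclei, the corresponding shares were 0%, 0.00498% and 0%. Of the 26 member and class pairs, 1 had an unadjusted p below 0.05 for long-term restriction, 0 for acute restriction and 2 for the difference, against 4.77%, 5.36% and 2.96% of all genes. DESeq2 also called 0 members in each, and the share of all pairs that it called there is not reported here.

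In granule-like nuclei the restricted libraries mostly overlapped with the old ad libitum ones. Ntrk3 was 1384, 1319.9 and 1309.9 in the acutely restricted libraries and 1394, 1297, 1413 and 1245 in the long-term ones. Ntrk2 was 307, 277 and 286, and 279.9, 321, 330.2 and 278. Bdnf was 58.5, 72.8 and 79.2 in the acute libraries and 63.3, 70.8, 70.2 and 82.9 in the long-term ones. Most of these values lay below every old ad libitum value of Bdnf given above. Ntf3 was 71.7, 70.4 and 57.4, and 54.7, 56.1, 71.5 and 60.4. Both diets overlapped with the old ad libitum libraries for Bdnf, Ntf3 and Ntrk2, whereas the acute Ntrk3 libraries lay above the old ad libitum ones, as in 7.4% of all gene and class pairs. In precursor-like nuclei the acute Ntrk3 libraries lay below the old ad libitum ones, as in 6.48% of pairs.

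The 3 pairs with an unadjusted p below 0.05 were outside granule-like nuclei. Bdnf in inhibitory-like nuclei was 5.50, 6.45 and 5.64 in old ad libitum libraries and 4.07, 3.599, 1.46 and 3.47 under long-term restriction (-0.84 ± 0.38, edgeR unadjusted p = 0.0411, adjusted p = 1.00), from 4 to 27 UMIs per library. Ntf3 in inhibitory-like nuclei was 8.63, 29.6 and 13.3 in the acute libraries and 7.07, 7.47, 12.1 and 7.52 in the long-term ones, a difference of -0.91 ± 0.41 (edgeR unadjusted p = 0.0409). The acute value of 29.6 came from 1 library. Ntrk2 in astrocyte-like nuclei was 1473, 1222 and 1503 in the acute libraries and 1248, 1158, 1061 and 1108 in the long-term ones (-0.27 ± 0.11, edgeR unadjusted p = 0.0234), with 1 long-term library above the lowest acute one.

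In clusters 0, 1 and 3, no Bdnf difference between restricted and old ad libitum libraries passed the adjusted test of edgeR. The share of all genes called for restriction in these fits is not reported here. In cluster 1 the long-term libraries had 127, 121, 148 and 142 and the old ad libitum ones 176, 136 and 125, which overlapped (-0.10 ± 0.13). Cluster 31, which was not fitted, had 289, 264 and 374 in 3 long-term libraries and 305 and 229 in 2 old ad libitum ones. In cluster 0 it was 35.1, 33.2, 29.9 and 34.2 under long-term restriction, all below the old ad libitum values of 38.1 to 46.5, as for 3.91% of genes tested there (-0.34 ± 0.12, edgeR unadjusted p = 0.0116, adjusted p = 0.999). In cluster 3 it was 58.1, 61.9, 57.8 and 76.6, which overlapped with the 73.1 to 90.9 of old ad libitum libraries (-0.40 ± 0.13, edgeR unadjusted p = 0.0055, adjusted p = 0.962), and the share of genes with every long-term library lower was 4.05%. Under acute restriction cluster 3 had 59.3, 79.2 and 67.4 (-0.32 ± 0.14, edgeR unadjusted p = 0.0312, adjusted p = 0.855). Ageing and both restriction contrasts share the old ad libitum libraries, so the cluster 3 values are not independent of each other.

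Because Bdnf is induced by activity, its level was compared over libraries with the mean of 11 activity-induced genes in 3 excitatory classes. Over all libraries, Pearson's r in CA1-like nuclei was 0.588 (n = 13, permutation p = 0.0348, adjusted p = 0.104) and Spearman's rho 0.665 (permutation p = 0.0156, adjusted p = 0.0469), with r = 0.73 without the 2 libraries farthest from the median. In granule-like nuclei r was 0.108 (permutation p = 0.726) and rho 0.203 (permutation p = 0.505), and in CA3-like nuclei r was 0.342 (n = 11, permutation p = 0.319), rho 0.291 (permutation p = 0.385) and r without the 2 farthest 0.06. The libraries numbered 1 stand apart and were then left out. In CA1-like nuclei Pearson's r was 0.62 (n = 9, exact permutation p = 0.0791, adjusted p = 0.237) and Spearman's rho 0.55 (exact permutation p = 0.133, adjusted p = 0.345), with r = 0.67 without the 2 libraries farthest from the median. In granule-like nuclei r was 0.35 (n = 9, exact permutation p = 0.367, adjusted p = 0.55) and rho 0.45 (exact permutation p = 0.23, adjusted p = 0.345), with 0.23 without the 2 farthest. In CA3-like nuclei r was 0.24 (n = 7, exact permutation p = 0.618) and rho 0.04, and r without the 2 farthest was -0.81. After adjustment, the rho of CA1-like nuclei over all 13 libraries passed, its r did not, and neither did any value without the libraries numbered 1. The permutations pooled the libraries of all groups with no term for group, so a difference between groups can enter these values. The CA3-like value rests on 2 libraries.

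Of the 40 other pathway genes, 232 gene and class pairs were tested. For ageing, 5 were higher and 1 lower, for acute restriction 1 was higher and 1 lower, and for long-term restriction and for the difference between diets none passed (edgeR adjusted p below 0.05). Of all gene and class pairs, 1.48%, 0.234%, 0.0355% and 0.0133% were called in these comparisons. In the classes, all of the ageing rises were in Sorcs1 and Sorcs3, sorting receptors of the sortilin family. In granule-like nuclei Sorcs3 was 169 ± 14.8 in old and 91.0 ± 5.95 in young libraries (n = 3 each, 1.05 ± 0.17, edgeR adjusted p = 0.0162), and 0.75 with the span trend removed (edgeR adjusted p = 0.044). Sorcs1 there was 24.2 ± 7.49 against 13.8 ± 2.49 (0.96 ± 0.22, edgeR adjusted p = 0.0426), with overlapping groups, and was not called with the span trend removed (0.69, edgeR adjusted p = 0.134) or with library totals (0.81, edgeR adjusted p = 0.0690). Each lost its call without old ad libitum libraries 2 or 4 or young library 2 in turn (edgeR adjusted p of 0.0631 to 0.182), with estimates of 1.01 to 1.03 for Sorcs3 and 0.80 to 0.84 for Sorcs1. Without all libraries numbered 1 both stayed called (1.18 and 1.23). Both genes were higher in cluster 1 than in cluster 0, as given above, and cluster 1 held 23.0% to 34.5% of the class in young and 34.1% to 52.4% in old libraries, so the class sums mix the clusters in different proportions. In the clusters fitted alone, neither gene was called: Sorcs3 had 0.85 ± 0.33 in cluster 0 and 0.42 ± 0.21 in cluster 1 (edgeR adjusted p of 0.148 and 0.215), and Sorcs1 0.95 ± 0.34 and 0.30 ± 0.23 (0.115 and 0.4004).

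The fits of single clusters called pathway genes for ageing as well. Of those tested, 0 of 34 were called in cluster 0 (2.87% of all genes), 2 of 32 in cluster 1, both higher (4.18%), and in unnamed cluster 3 2 of 32 were higher and 1 lower (5.39%). Sorcs3 in cluster 3 was 172 ± 35.7 in old and 84.1 ± 14.5 in young libraries (1.20 ± 0.18, edgeR adjusted p = 0.0026). It stayed called without each of the 6 libraries in turn and with the span trend removed (0.98), but not with the depth covariate (1.23, edgeR adjusted p = 0.0929). Sort1, which codes for the sorting receptor sortilin, was called in clusters 1 and 3 (0.37 ± 0.09 and 0.46 ± 0.10, edgeR adjusted p of 0.041 and 0.0205). Pcsk5, a convertase gene, was called in cluster 1 (0.56 ± 0.15, edgeR adjusted p = 0.0431) and Traf6 was lower in cluster 3 (-0.59 ± 0.16, edgeR adjusted p = 0.0373). The 4 calls other than that of Sorcs3 were lost in 3 to 5 of 6 omissions, with the span trend removed (edgeR adjusted p of 0.0698 to 0.189) and with the depth covariate (0.334 to 0.707). Their estimates kept their direction, at 0.29 for Sort1 and 0.34 for Pcsk5 in cluster 1 and 0.39 for Sort1 and -0.49 for Traf6 in cluster 3 with the span trend removed, and at 0.31, 0.45, 0.32 and -0.62 with the depth covariate. Without the libraries numbered 1, Sort1 and Pcsk5 in cluster 1 were not called (0.38 and 0.49, edgeR adjusted p of 0.0675 and 0.0608). Sorcs3, Sort1 and Traf6 in cluster 3 stayed called (1.24, 0.47 and -0.66). With library totals the same calls were lost and kept.

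In precursor-like nuclei Sorcs3 was 752 in old and 556 in young libraries (0.49 ± 0.11, edgeR adjusted p = 0.0173) and Sorcs1 1120.3 and 880.1 (0.40 ± 0.11, edgeR adjusted p = 0.0459). In oligodendrocyte-like nuclei Sorcs1 was 1586 ± 163 and 1043 ± 132 (0.67 ± 0.14, edgeR adjusted p = 0.00403). With the span trend removed these 3 fell to 0.18, 0.10 and 0.05 and were not called. Single libraries ended the Sorcs3 call in 2 of 6 omissions (old ad libitum 2 or 4), the precursor-like Sorcs1 call in 4 (old ad libitum 1, 2 or 4 or young 2) and the oligodendrocyte-like Sorcs1 call in 1 (young 2), with estimates of 0.35 to 0.60 there. Traf6, an adaptor that p75NTR recruits, was 74.5 ± 15.1 in old and 132 ± 5.11 in young oligodendrocyte-like nuclei (-0.87 ± 0.18, edgeR adjusted p = 0.00458), and -0.80 with the trend removed (edgeR adjusted p = 0.0171). Without old ad libitum library 4 or young library 2 it was not called (-0.71 and -0.80). Without all libraries numbered 1, Sorcs1 in precursor-like nuclei was not called (0.38, edgeR adjusted p = 0.106). The calls of Sorcs3 in precursor-like nuclei and of Sorcs1 and Traf6 in oligodendrocyte-like nuclei stayed (0.53, 0.57 and -0.95).

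The acute restriction calls were both in oligodendrocyte-like nuclei. Ptpn11, which codes for the phosphatase SHP2 downstream of Trk receptors, was 257 ± 16.03 under acute restriction and 151 ± 6.34 in old ad libitum libraries (0.76 ± 0.15, edgeR adjusted p = 0.00333), and was not called without old ad libitum library 2 (0.67, edgeR adjusted p = 0.0823), with the span trend removed (0.73, edgeR adjusted p = 0.0596) or with the depth covariate (0.76, edgeR adjusted p = 0.114). Sorcs3 was 99.1 ± 3.75 and 179 ± 12.1 (-0.90 ± 0.16, edgeR adjusted p = 0.00126), and stayed called without each of the 6 libraries in turn (-0.99 to -0.84). With the depth covariate it was the only call left of the 8 pathway pairs (-0.91, edgeR adjusted p = 0.0491), and the other 7 had edgeR adjusted p of 0.114 to 0.830. That setting called 0.0288% of all pairs for ageing, and several estimates were about as large with it: -0.88 for Traf6 in oligodendrocyte-like nuclei, 0.98 and 1.13 for Sorcs3 and Sorcs1 in granule-like nuclei and 0.64 for Sorcs3 in precursor-like nuclei. Sorcs1 was at 0.39 in oligodendrocyte-like and 0.24 in precursor-like nuclei. Over the whole list, the median ageing log2 fold change in granule-like nuclei was 0.16, against -0.04 for all genes tested. In the other classes it was close to that of all genes, at 0.06 and -0.01 in CA1-like, 0.05 and -0.03 in inhibitory-like and -0.06 and -0.02 in CA3-like nuclei. The list was not matched to all genes for span, and the mix of clusters in granule-like nuclei differed between young and old libraries. The part of either in the granule-like value was not tested.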

How the data were processed

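Nuclei carrying Hoechst stain were sorted and sequenced by 10x Genomics 3′ chemistry, per the labels' protocols. The deposited values are raw UMI counts per gene and barcode, made with Cell Ranger 4.0.0 on mm10, per the submitters' processing notes. Intron and strand settings are not given in the sources used here.

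Barcodes under 500 genes or over 5% mitochondrial UMIs were dropped, doublets were called with scrublet in scanpy 1.11.5 and removed, and nuclei were clustered with leidenalg 0.10.2 without the member genes. A cluster was named from at least 3 raised markers. Counts were summed per library and class (at least 20 nuclei) and tested in edgeR 4.0.16 (R 4.3.3), with DESeq2 1.42.0 as an alternative, over all genes passing the filter, in all 13 libraries. Counts were also simulated from granule-like sums with no group difference (15895 genes), and changes were then put into the old ad libitum libraries. Of these, 13% of 1.5-fold and 54% of 2-fold changes were recovered. The changed genes were drawn from those with a mean of at least 20 counts. The span trend and the shift of the libraries numbered 1 were not simulated, so these shares are not the power for a given member. Levels were compared within libraries by exact sign-flip tests on log2(CPM + 1), where CPM was computed here as UMIs scaled to 1000000 per class and library. Thinning to 1000 UMIs left out 48 granule-like, 57 astrocyte-like and 365 oligodendrocyte-like nuclei with fewer. Gene spans came from the GENCODE annotation and upstream windows from RefSeq, both on GRCm38, the assembly that mm10 names.

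The members and gene lists were chosen with earlier results of these data known. The genes named by rule are the members, pathway genes passing the test, and genes among the 5 most alike each member. Also named, outside these rules, are genes that overlap a member, leading genes of clusters, Prox1 and activity-induced genes. The pathway genes Ntf5 and Pcsk1 are given by level only and were not called by edgeR. Some genes that these rules name are not reported here. The effect of 9 alternative settings, the libraries numbered 1 and single-library omission is given in the closing section.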

Additional observations from a re-analysis of the deposited data

Results flagged for a closer look

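In 27 groups of 4 libraries, 3 held a library far from the other 3, and chance gives about 1 in 20. Ntrk3 in astrocyte-like nuclei was 129.8 CPM in long-term restriction library 3 and 44.0 to 50.1 in the others, from 57 UMIs. Ntf3 in inhibitory-like nuclei was 12.1 in the same library and 7.07 to 7.52 in the others, from 33 UMIs. Ntf3 in oligodendrocyte-like nuclei was 6.53 in long-term restriction library 2 and 2.50 to 3.05 in the others, from 13 UMIs.

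Under acute restriction, Ntrk3 had a log2 fold change of 0.0887 in granule-like nuclei, where each restricted library was above each old ad libitum one, and of -0.140 in precursor-like nuclei, where each was below. Over all gene and class pairs, each acute library was above each old ad libitum one in 7.4% and below in 6.48%. Neither was called by edgeR, and the difference between the classes was not tested.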

How the results depend on the processing

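An edgeR count of 0 at 3 libraries a group does not show that a member is unchanged. For ageing, the count of members called in 26 member and class pairs was 0. It was 6 with DESeq2 (3.62% of all pairs called), 1 with upper-quartile factors (1.91%), 3 without a filter on low counts (39 pairs, 1.55%), 8 with a term for the libraries numbered 1 (7.98%) and 8 with a replicate block (6.53%). Without all 4 libraries numbered 1 it was 2, with 7.77% of all pairs called (Ntrk3, 0.70 in inhibitory-like and 1.42 in oligodendrocyte-like nuclei). Leaving out single libraries gave 0 to 2, with 0.161% to 4.18% of all pairs called: without old ad libitum library 1, Ntrk3 in oligodendrocyte-like nuclei (1.44); without young library 1, Ntrk3 in granule-like and inhibitory-like nuclei (0.50 and 0.62); without young library 3, Ntrk2 in granule-like and precursor-like nuclei (0.52 and 0.49). It stayed 0 with the depth covariate, the span trend removed, doublet calls kept, sums of at least 50 nuclei and library totals (0.0288% to 1.85% of pairs called). The cause of these differences was not tested. In sums over all nuclei the count for ageing was 1 with DESeq2 (4.3% of genes called) and 1 with the term for number 1 (6.59%). No restriction count moved from 0 in any setting run, and the shares of all pairs called in those settings are not reported here.

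Same-numbered libraries other than number 1 correlated at -0.09 to 0.35 and differently numbered ones at -0.66 to 0.61, so the numbers do not pair the libraries, and the replicate block is given only as a setting. Of 17 member and class estimates with an unadjusted p below 0.05, 0 changed direction in any setting. Of 60 neighbouring class pairs, 10 differed, 7 with doublet calls kept, 4 of 50 with at least 1000 genes per nucleus, and 0 without the 4 libraries numbered 1, where fewer libraries enter the exact test.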
